A study of Mus musculus with 17 samples.

Results

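The molecular clock of the mouse kidney was followed through 10 transcripts, Arntl, Npas2, Clock, Per1, Per2, Per3, Nr1d1, Nr1d2, Dbp and Tef. They were chosen by symbol from the 53313 gene identifiers that the count files of all 17 libraries share, and all 10 were found and passed the filter on low counts in both experiments. RNA sequencing had been performed on kidney tissue of 9 male wild-type C57BL/6Rj mice, with 3 mice each at the age of 3, 12 and 24 months. According to the methods, RNA came from a part of the right kidney, and the rest was fixed for histology. Also sequenced were 8 cultures of primary tubular epithelial cells (PTEC) grown from kidneys of wild-type mice of the same strain. The strain is spelled here as in the labels, and the methods of the study write C57BL/6JRj. Of the cultures, 4 were harvested as non-senescent (ns) cells without irradiation at day 6 and 4 as senescent (sen) cells, which had received γ-irradiation with 10 Gy, at day 16. The labels do not say from when these days are counted. Irradiation and time in culture changed together, so their parts cannot be told apart. The hour of day at which kidneys were taken, and the time between the last change of medium and harvest of the cultures, are not given in the sources used here, although the methods state that medium was renewed at a regular interval. Differences in clock genes between ages can therefore not be told apart from differences in the hour of collection, nor those between ns and sen cells from the time since the medium was changed.

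The circadian clock is a loop of transcription and repression that most cells run with a period of about a day. ARNTL (also called BMAL1) pairs with CLOCK or its relative NPAS2, binds E-boxes and switches on the Per and Cry genes, whose proteins return to block the pair. The nuclear receptors NR1D1 and NR1D2 (REV-ERBα and β) are switched on by the same pair and repress Arntl and Npas2 through ROR elements, and the PAR bZIP factors DBP and TEF carry the rhythm to output genes through D-boxes. In rodent kidney, as in liver, transcripts of Arntl and Npas2 are known to peak at the opposite time of day from those of Dbp, and clock output includes genes of tubular salt and water transport.

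The kidney libraries held 37311247 to 66894790 counts and the PTEC libraries 26963442 to 35409144. Levels are given in CPM, the counts of a gene relative to the scaled size of its library, with TMM scaling over all 17 libraries. A gene was called where the Benjamini-Hochberg adjusted p of edgeR was below 0.05 and its log2 fold change exceeded 0.5 in either direction. The 3-month kidneys were sequenced less deeply than the older ones and had been counted on a different gene set, which cannot be told apart from age. In 5 libraries long transcripts were low for their group, with Spearman correlations between a gene's deviation from its group mean and its transcript length of -0.60 in ns replicate 3, -0.49 in sen replicate 3, -0.42 in 3-month replicate 3, -0.35 in 12-month replicate 2 and -0.31 in 24-month replicate 2. All 10 proximal tubule markers reached 1 CPM on average at each age, with summed levels of 9995 to 21916 CPM, against 93.9 to 524 CPM in PTEC, where 6 of 10 did so in ns cells and 3 of 10 in sen cells. The summed level of the proximal tubule markers was thus low in the cultures. So was that of 8 genes of the loop, distal tubule and collecting duct, at 0.67 to 23.2 CPM in PTEC against 4037 to 7215 CPM in kidneys. Fewer cells of a type and less RNA per cell cannot be told apart in such bulk samples.

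Promoters are shown for Arntl, Dbp, Nfil3 and Bhlhe41, which are clock genes called between kidney ages, and for the other members that hold a motif through which the clock proteins act, namely Per1, Per3 and Tef. RefSeq promoters (GRCm38.p6) reach from 250 bases before a transcription start to 50 bases from it. The table held 14 promoters of 9 members and none for Per2. Both strands were searched for the E-box CACGTG, the D-box TTANGTAA and the core of the ROR element, TAGGTCA. These occurred in 7.15%, 2.32% and 2.61% of all 32851 promoters in the table. Capitals mark the matches, and each sequence runs 5′ to 3′ on the strand of its gene.
Arntl, second of 2 promoters, chr7:113207261-113207560, plus strand: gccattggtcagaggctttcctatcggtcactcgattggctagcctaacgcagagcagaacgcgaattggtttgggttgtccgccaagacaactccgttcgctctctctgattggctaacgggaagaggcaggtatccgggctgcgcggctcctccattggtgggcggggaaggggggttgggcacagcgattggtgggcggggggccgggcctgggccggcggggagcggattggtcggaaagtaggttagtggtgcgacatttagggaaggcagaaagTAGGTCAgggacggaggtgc
Per1, first of 2 promoters, chr11:69098699-69098998, plus strand: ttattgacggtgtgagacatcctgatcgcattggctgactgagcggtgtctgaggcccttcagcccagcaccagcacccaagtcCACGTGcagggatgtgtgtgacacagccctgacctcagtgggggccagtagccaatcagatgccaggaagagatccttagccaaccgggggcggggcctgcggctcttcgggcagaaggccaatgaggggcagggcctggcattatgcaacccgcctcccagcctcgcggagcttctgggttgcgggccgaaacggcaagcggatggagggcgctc
Per3, chr4:151044616-151044915, minus strand: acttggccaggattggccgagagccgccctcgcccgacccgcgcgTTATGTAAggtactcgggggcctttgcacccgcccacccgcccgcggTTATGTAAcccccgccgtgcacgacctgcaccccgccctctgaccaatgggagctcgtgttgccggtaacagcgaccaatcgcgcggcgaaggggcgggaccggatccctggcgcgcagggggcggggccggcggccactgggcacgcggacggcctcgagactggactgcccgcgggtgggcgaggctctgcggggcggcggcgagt
Dbp, chr7:45704997-45705296, plus strand: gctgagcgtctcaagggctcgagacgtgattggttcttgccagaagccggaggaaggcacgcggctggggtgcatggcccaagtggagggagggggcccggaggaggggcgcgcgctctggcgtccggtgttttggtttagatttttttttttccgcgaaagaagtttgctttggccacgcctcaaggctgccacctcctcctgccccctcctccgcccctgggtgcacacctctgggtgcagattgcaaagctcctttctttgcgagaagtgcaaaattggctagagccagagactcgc
Tef, first of 2 promoters, chr15:81802423-81802722, plus strand: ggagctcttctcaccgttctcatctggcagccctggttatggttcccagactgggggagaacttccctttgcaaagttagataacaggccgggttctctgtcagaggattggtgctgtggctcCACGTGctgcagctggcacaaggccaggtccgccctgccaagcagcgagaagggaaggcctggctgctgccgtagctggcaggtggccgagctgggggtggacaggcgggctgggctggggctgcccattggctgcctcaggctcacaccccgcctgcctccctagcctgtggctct
Nfil3, chr13:52980990-52981289, minus strand: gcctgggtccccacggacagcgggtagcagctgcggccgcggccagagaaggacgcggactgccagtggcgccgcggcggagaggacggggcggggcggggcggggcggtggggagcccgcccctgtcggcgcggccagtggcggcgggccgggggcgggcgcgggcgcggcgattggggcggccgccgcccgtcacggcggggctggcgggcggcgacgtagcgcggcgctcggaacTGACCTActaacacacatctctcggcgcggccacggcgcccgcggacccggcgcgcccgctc
Bhlhe41, chr6:145865371-145865670, minus strand: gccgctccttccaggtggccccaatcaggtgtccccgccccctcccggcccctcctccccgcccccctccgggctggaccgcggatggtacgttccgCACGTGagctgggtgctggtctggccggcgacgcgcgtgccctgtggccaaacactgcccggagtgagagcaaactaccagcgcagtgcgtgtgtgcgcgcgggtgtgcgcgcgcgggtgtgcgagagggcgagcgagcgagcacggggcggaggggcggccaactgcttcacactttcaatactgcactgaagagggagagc
Among the members, the E-box was found in 3 promoters of 2 genes, at 166 bases before the start of Per1 and at 127 and 138 bases before the 2 starts of Tef. Per3 held the D-box at 2 places, 205 and 158 bases before its start. The ROR core lay in Arntl, beginning 31 bases into the transcript counted from the start as base 1, and on the opposite strand in Nfil3, a D-box repressor outside the members, beginning 12 bases before its start. Bhlhe41, also outside the members, held the E-box 153 bases before its start. The windows of Dbp, Npas2, Clock, Nr1d1 and Nr1d2, the last 2 of which were called in PTEC, held none of these letters, which says only that they are not in these windows, and a match is a description of letters and not a binding site.

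The transcript level of the activator Arntl was lowest in 12-month kidneys, and that of the output gene Dbp was highest there. Between 3 and 12 months Arntl fell and Dbp rose, while at 24 months both had mean levels between those of the other ages. Of the 10 members, 2 were called between 12 and 3 months, against 2.58% of the 17067 genes tested. Of these 1 rose, against 1.22% of all genes, and 1 fell, against 1.36%. The 12-month and 3-month kidneys did not overlap for 5 members, Arntl, Npas2, Per3, Dbp and Tef, against 20.3% of all genes. DESeq2 called these 5 members in that comparison against 7.73% of all genes, and the same 5 over any age against 14.1%.

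**Figure D1:**
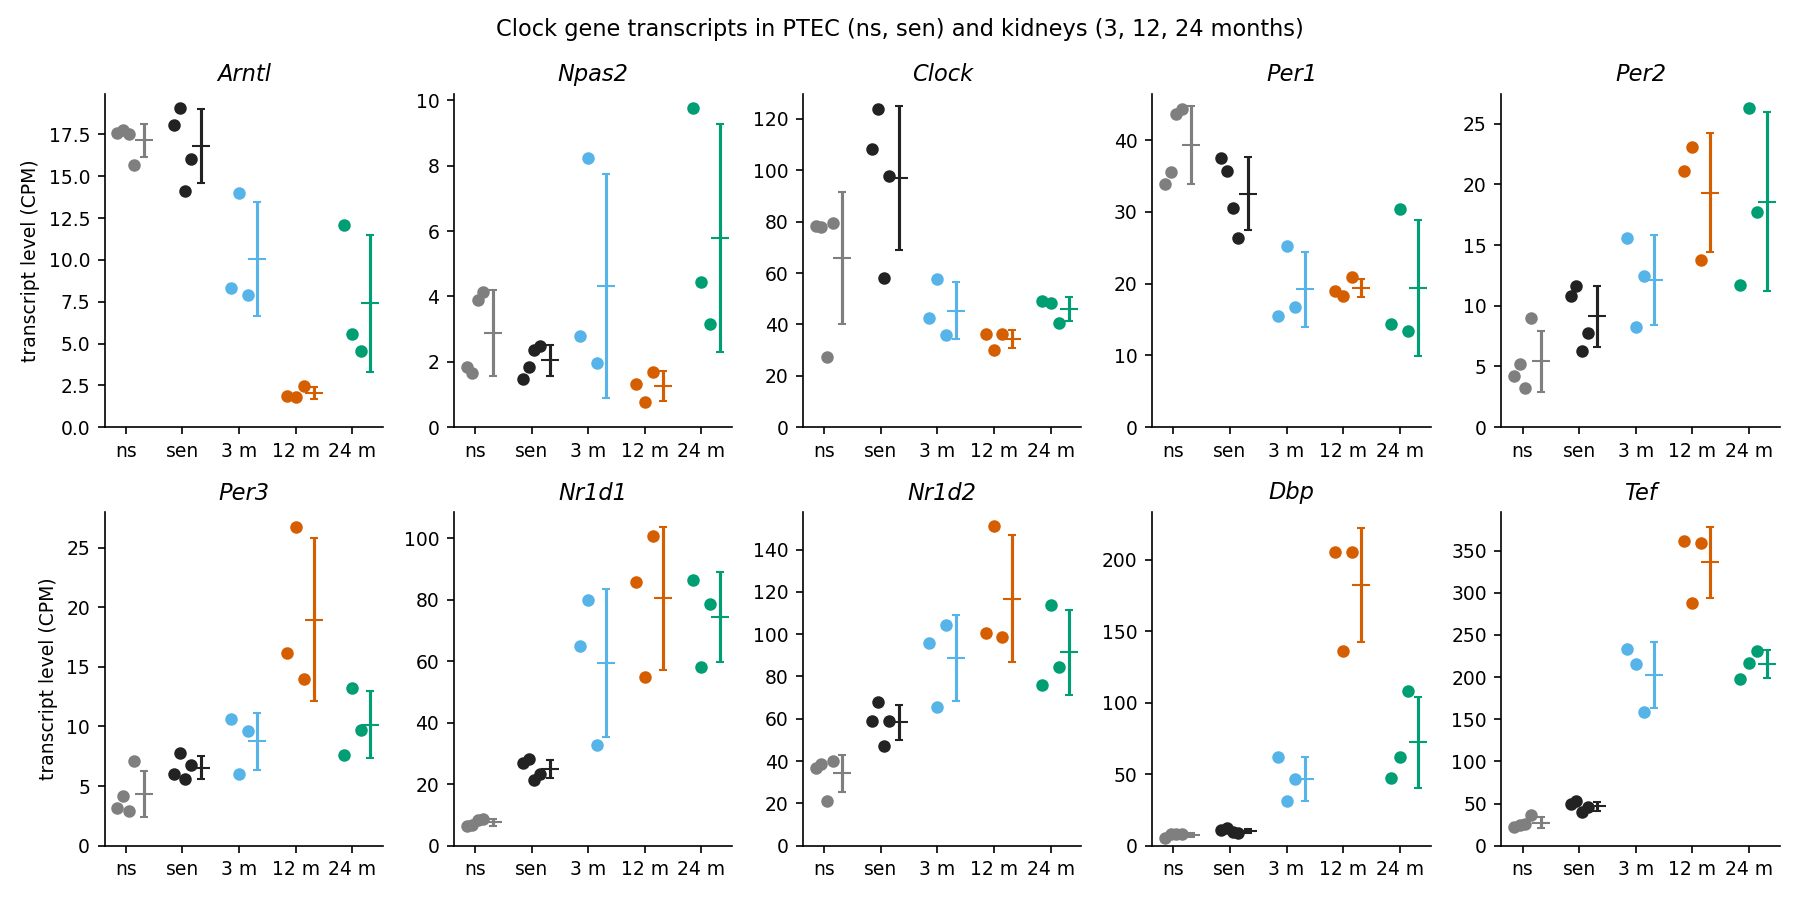
Transcript levels of the 10 clock genes in CPM in non-senescent (ns) and senescent (sen) PTEC and in kidneys of 3, 12 and 24 months. Points are single libraries, and bars show mean ± SD (n = 4 cultures or 3 kidneys). Arntl lies between 1.79 and 2.44 CPM in the 12-month kidneys, below all other libraries, and Dbp between 136 and 206 CPM there, above all others.

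Arntl (chromosome 7, 113207465 to 113314126, plus strand, GRCm38), the obligate partner in the activating pair, was at 8.29, 14.0 and 7.92 CPM in the 3 kidneys of 3 months. At 12 months it was at 1.84, 1.79 and 2.44 CPM, and at 24 months at 12.1, 5.55 and 4.58 CPM. All 12-month kidneys were below all kidneys of the other ages, and the 3- and 24-month kidneys overlapped. The log2 fold change was -2.33 ± 0.41 (SE, n = 3 against 3) from 3 to 12 months, with an adjusted p of 0.0282 by edgeR. From 12 to 24 months it was 1.89 ± 0.40, which missed the threshold with an adjusted p of 0.0589 by edgeR, and from 3 to 24 months -0.44 ± 0.38 (adjusted p = 0.508). The last value lay between -0.99 and -0.12 when each kidney was left out in turn. Over the 3 ages together the edgeR F test gave an adjusted p of 0.0337 for Arntl and of 0.0338 for Dbp, 2 of 10 members against 4.18% of all genes. Arntl shares 33 exon bases with Gm45355 on the other strand, which had 0 counts in every kidney. The genes Gm20428, Gm3617, Gm43658, Ube2n-ps1 and Camta1 overlap other members by position and share 0 exon bases with them.

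Npas2 (chromosome 1, 39193731 to 39363236, plus strand), which can take the place of CLOCK, was at 2.78, 8.25 and 1.95 CPM at 3 months, 1.32, 0.78 and 1.70 CPM at 12 months and 9.76, 4.45 and 3.16 CPM at 24 months. Here too the 12-month kidneys lay below all others, but kidneys of the same age spread widely. The log2 difference was -1.80 ± 0.63 between 12 and 3 months and 2.21 ± 0.63 between 24 and 12 months, with edgeR adjusted p of 0.181 and 0.135. Leaving out each kidney in turn moved these differences to between -2.15 and -0.91 and to between 1.60 and 2.50. Clock (chromosome 5, 76209868 to 76304792, minus strand), the other partner of ARNTL, moved within narrower limits, at 36.0 to 57.6 CPM at 3 months, 30.1 to 36.4 CPM at 12 months and 40.7 to 49.0 CPM at 24 months. Its log2 difference was -0.42 ± 0.19 between 12 and 3 months (edgeR adjusted p = 0.314) and 0.45 ± 0.19 between 24 and 12 months (adjusted p = 0.315).

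Among the repressors, Per3 (chromosome 4, 151003652 to 151044665, minus strand), whose protein belongs to the complex that blocks the activating pair, was at 10.6, 6.01 and 9.64 CPM at 3 months. It was at 16.2, 26.8 and 14.0 CPM at 12 months and at 7.61, 13.2 and 9.68 CPM at 24 months. The 12-month kidneys stood above all others, with a log2 difference of 1.10 ± 0.32 against 3 months (edgeR adjusted p = 0.113) and of -0.88 ± 0.31 from 12 to 24 months (adjusted p = 0.226). Per2 (chromosome 1, 91415982 to 91459324, minus strand), the closely related repressor, ranged from 8.25 to 15.6 CPM, 13.8 to 23.1 CPM and 11.7 to 26.3 CPM at 3, 12 and 24 months, and the ages overlapped. Its log2 differences against 3 months were 0.66 ± 0.34 at 12 months and 0.62 ± 0.34 at 24 months (edgeR adjusted p = 0.394 and 0.345). Per1 (chromosome 11, 69095217 to 69109960, plus strand), which glucocorticoids also induce directly, had nearly equal means of 19.2 ± 5.3, 19.4 ± 1.3 and 19.4 ± 9.5 CPM (SD, n = 3) at the 3 ages.

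Nr1d1 (chromosome 11, 98767932 to 98775333, minus strand), the repressor of Arntl, was at 65.0, 80.1 and 32.9 CPM at 3 months, 85.7, 55.04 and 100.6 CPM at 12 months and 86.4, 58.0 and 78.7 CPM at 24 months. The ages overlapped, and the log2 difference between 12 and 3 months was 0.42 ± 0.34 (edgeR adjusted p = 0.641). The lowest kidney of each age was the library low in long transcripts, whose part in these values was not tested. The neighbour of Nr1d1 is Thra, a thyroid hormone receptor gene that overlaps it by 263 exon bases on the other strand. Thra followed the same order within each age, at 52.9 to 104 CPM, 54.8 to 98.2 CPM and 62.9 to 96.5 CPM. The strand setting of the counting is not given in the sources used here, so reads of Nr1d1 and Thra cannot be told apart with certainty. Nr1d2 (chromosome 14, 18204054 to 18239127, minus strand), the second REV-ERB, ranged from 65.6 to 104 CPM, 98.7 to 151 CPM and 75.8 to 114 CPM at 3, 12 and 24 months. Its log2 difference between 12 and 3 months was 0.38 ± 0.25 (edgeR adjusted p = 0.524).

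Of the output factors, Dbp (chromosome 7, 45705088 to 45710203, plus strand), a D-box activator driven by E-boxes, was at 61.7, 31.1 and 46.8 CPM at 3 months, 206, 136 and 206 CPM at 12 months and 47.1, 61.9 and 108 CPM at 24 months. Each 12-month kidney lay above every other kidney. Dbp rose by 1.96 ± 0.36 on the log2 scale from 3 to 12 months, with an adjusted p of 0.0336 by edgeR. The difference from 12 to 24 months was -1.32 ± 0.35 (edgeR adjusted p = 0.120) and from 3 to 24 months 0.64 ± 0.35 (adjusted p = 0.346). The latter lay between 0.22 and 0.90 when each kidney was left out in turn. Sphk2, which shares 539 exon bases with Dbp on the other strand, did not follow it, with a log2 difference of -0.21 ± 0.29 between 12 and 3 months.

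Tef (chromosome 15, 81802421 to 81826863, plus strand), the related D-box activator, was at 233, 216 and 159 CPM at 3 months, 361, 288 and 359 CPM at 12 months and 198, 217 and 231 CPM at 24 months. The 12-month kidneys again lay above all others, by a log2 difference of 0.71 ± 0.18 against 3 months (edgeR adjusted p = 0.0771). The difference from 12 to 24 months was -0.62 ± 0.18 (adjusted p = 0.140). Tef shares 193 exon bases with the antisense gene Gm17597, which did not exceed 1.81 CPM in any kidney.

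Between 24 and 12 months edgeR called 0 of 10 members against 1.33% of all genes, 6 members had an unadjusted p under 0.05 against 15.2% of all genes, and DESeq2 called 4 against 5.72%. The 2 ages did not overlap for 6 members, Arntl, Npas2, Clock, Per3, Dbp and Tef, against 25.6% of all genes. Kidneys with the same replicate number deviated together between these 2 ages, although they came from different mice. So did 24-month replicate 1 with 12-month replicate 3 (r = 0.27) and 24-month replicate 3 with 12-month replicate 1 (r = 0.19). Replicate 2 was low in long transcripts at both ages. The labels give no pairing, so p-values with the number as a block rest on pairs that the design does not hold. A fit of only the 12- and 24-month kidneys with this block called 5 members against 13.2% of all genes. In it Arntl rose by 1.77 (edgeR adjusted p = 0.0125) and Npas2 by 2.12 (adjusted p = 0.0129), while Per3 fell by 0.86 (adjusted p = 0.00546), Tef by 0.62 (adjusted p = 0.0105), and Dbp changed by -1.38 (adjusted p = 0.0154). A block over all 9 kidneys called none, and the share of all genes called in that fit is not given here. Between 24 and 3 months edgeR called 0 members against 2.34% of all genes, none had an unadjusted p under 0.05 against 18.2% of all genes, DESeq2 called none against 7.49%, and the 2 ages did not overlap for 0 members against 22% of all genes. The 2 calls between 12 and 3 months were lost without 3-month replicate 1 or 3 or without 12-month replicate 1 or 3, where adjusted p lay between 0.0573 and 0.104, and the log2 fold changes stayed between -2.49 and -2.27 for Arntl and between 1.86 and 2.22 for Dbp. Without 12-month replicate 2 only Dbp was called, and without 24-month replicate 2 only Arntl.

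**Figure D2:**
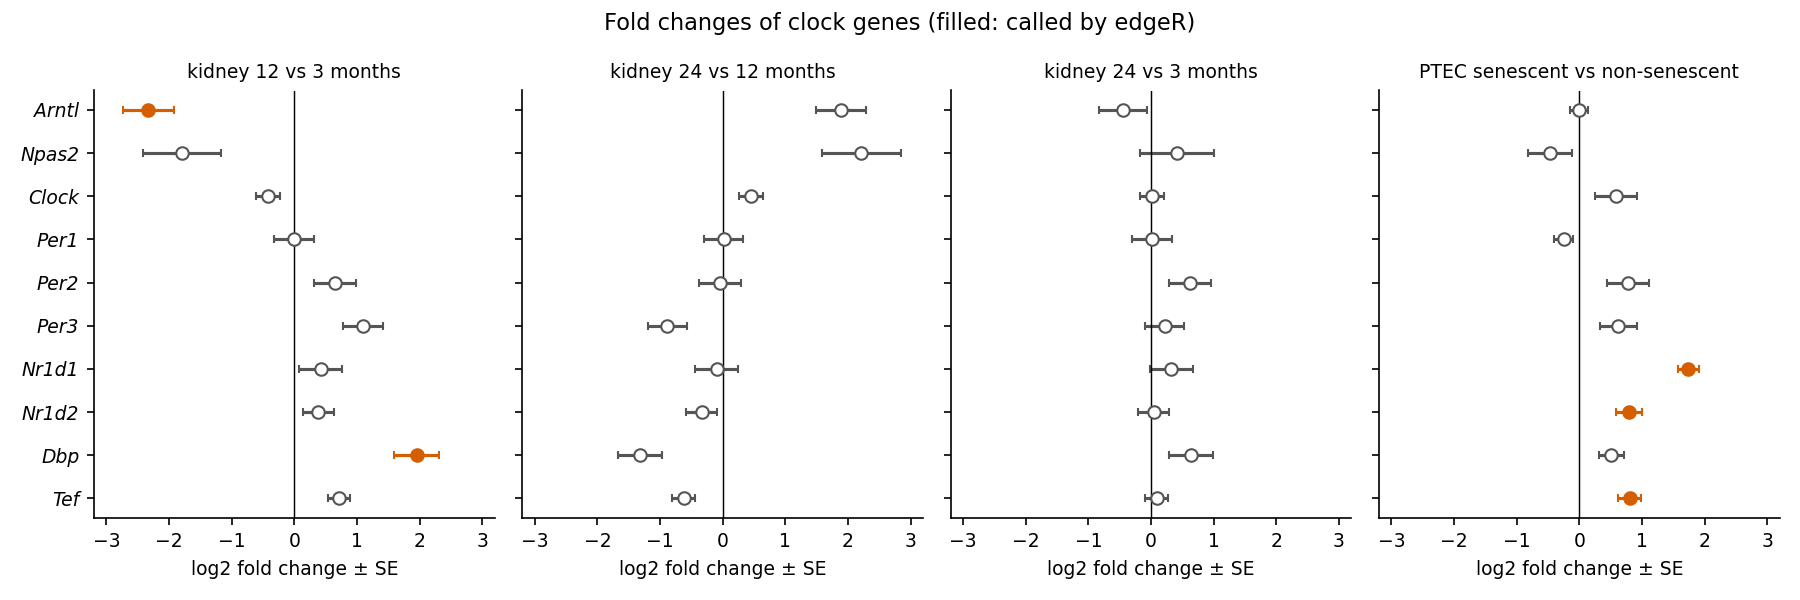
Log2 fold changes ± SE of the 10 clock genes by edgeR for 3 comparisons of kidney ages and for senescent against non-senescent PTEC. Filled points were called, namely Arntl and Dbp between 12 and 3 months and Nr1d1, Nr1d2 and Tef in PTEC. The comparisons of ages share kidneys, so their panels are not independent.

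The balance of Arntl and Dbp varied widely among the kidneys. The ratio of Dbp to Arntl was 7.44, 2.22 and 5.90 at 3 months, 112, 76.0 and 84.4 at 12 months and 3.90, 11.2 and 23.7 at 24 months. The 12-month kidneys thus stood apart from all others, and at 24 months the highest ratio was a larger multiple of the lowest than at the other ages. On the log2 scale Arntl fell into separate clusters over the 9 kidneys, with a gap of 0.91 between the 12-month kidneys and the rest where the next widest was 0.54, so no correlation was tested over them.

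As a description only, the members were ordered by the Pearson r of log2 CPM with Arntl over the 9 kidneys, which share 3 ages and 2 gene sets, and over the 6 kidneys of 3 and 24 months alone. Of the 13318 genes that averaged 1 CPM or more, Dbp stood 5th from the bottom (r = -0.94, and -0.88 over the 6 kidneys) and Per3 22nd from the bottom (-0.90 and -0.81). Tef (-0.79 and -0.19), Nr1d2 (-0.70 and -0.68) and Per2 (-0.68 and -0.86) were also on the opposite side, while Npas2 (0.87 and 0.63) and Clock (0.82 and 0.58) were on the side of Arntl. Nr1d1 (-0.12 and 0.24) and Per1 (-0.02 and 0.09) followed neither side. The 5 genes outside the members most like Arntl were Otud6b (0.98 and 0.90), Ftl1-ps1 (0.96 and 0.89), Slc16a1 (0.96 and 0.80), Jpt2 (0.96 and 0.87) and Leo1 (0.96 and 0.93). The 5 most opposite were Ttll10 (-0.96 and -0.80), Ccdc30 (-0.95 and -0.69), Fam76a (-0.94 and -0.72), 2410022M11Rik (-0.94 and -0.66) and Foxred1 (-0.94 and -0.68). They were picked as the extremes over the 9 kidneys, and every value over the 6 kidneys was nearer to no correlation.

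**Figure D3:**
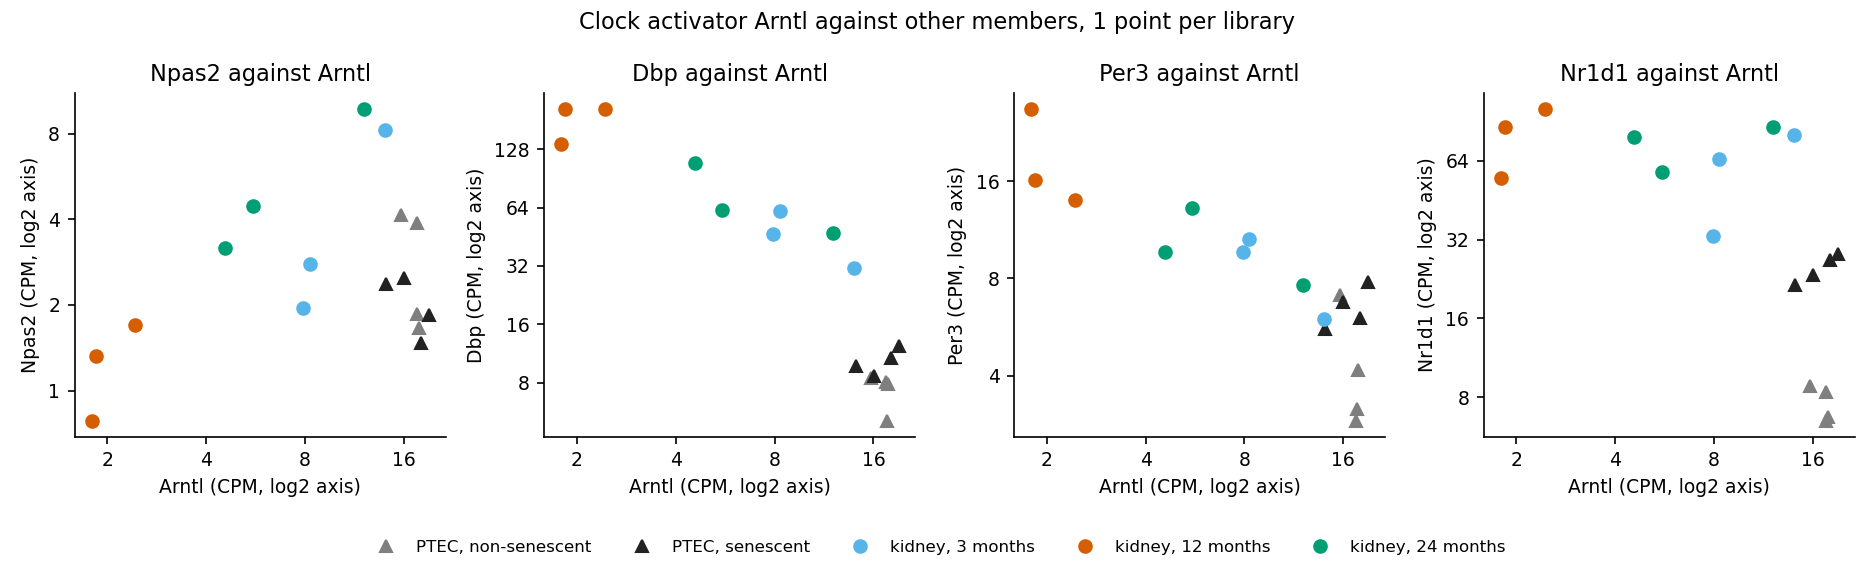
Npas2, Dbp, Per3 and Nr1d1 against Arntl in all 17 libraries, both in CPM on log2 axes, with 1 point per library, circles for kidneys and triangles for PTEC. In kidneys Npas2 is higher and Dbp and Per3 are lower where Arntl is higher, whereas Nr1d1 spans 32.9 to 100.6 CPM with no such order.

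Among kidneys of 1 age the arrangement was partly another. The kidney with the most Arntl (replicate 2 at 3 months, replicate 3 at 12 months and replicate 1 at 24 months) also had the most Npas2 and the most Nr1d1, and the least Per2, Per3 and Nr1d2, at each of the 3 ages. It had the least Dbp at 3 and 24 months and the second most at 12 months, where 2 kidneys had nearly equal Dbp. Clock was highest in it at 3 and 24 months and second at 12 months, Per1 was highest at 3 and 12 months and second at 24 months, and Tef was second at 3 and 12 months and lowest at 24 months. Nr1d1 was thus on the side of Arntl within each age, although over all 9 kidneys it followed neither side. These 3 kidneys were also those with the most counts from long transcripts for their age, with Spearman correlations between deviation and transcript length of 0.42, 0.30 and 0.38, and the part of this in the order of the members was not tested. The members spread more within ages than most genes, with a median SD of 0.46 on the log2 scale against 0.32 for all 17067 genes tested and 8 of 10 members above that median. Npas2 spread most (0.85) and Tef least (0.22). In PTEC the median SD of the members was 0.32 against 0.31 for all genes, with 5 of 10 above it.

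In PTEC, the REV-ERB genes Nr1d1 and Nr1d2 and the output factor Tef were higher in senescent than in non-senescent cells, and Arntl was at the same level. Senescent cultures had 3.28-fold more Nr1d1 by group means, the widest change among the members. Of the 10 members 3 rose and 0 fell by edgeR, beside 20.1% and 19.7% of the 15434 genes tested and 39.8% called either way. The 2 groups did not overlap for 4 members, Nr1d1, Nr1d2, Dbp and Tef, against 42% of all genes. In this fit the share of members called was not above the background. With the replicate number as a block, 7 of 10 members were called against 44.6% of all genes. Such a block treats same-numbered cultures as pairs, and no such pairing is given in the labels. Nothing in the labels says that the cultures came from separate mice, so these p-values measure the spread between cultures, which may be technical.

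Nr1d1 was at 6.50, 6.73, 8.37 and 8.81 CPM in the 4 ns cultures and at 26.8, 28.1, 21.4 and 23.4 CPM in the 4 sen cultures. The groups were far apart, with a log2 fold change of 1.74 ± 0.16 (SE) and an adjusted p of 5.06e-05 by edgeR. Thra, on the other strand, also rose, from 6.75 to 11.7 CPM in ns cells to 15.4 to 18.8 CPM in sen cells (log2 fold change 0.99 ± 0.19, edgeR adjusted p = 0.00264). Nr1d2 was at 36.8, 38.7, 21.2 and 39.8 CPM in ns cells and at 58.9, 67.8, 47.3 and 59.1 CPM in sen cells, a log2 rise of 0.80 ± 0.21 (edgeR adjusted p = 0.0123). Tef was at 21.6, 24.5, 25.9 and 36.8 CPM and at 49.0, 52.5, 40.1 and 45.5 CPM, a log2 rise of 0.80 ± 0.18 (edgeR adjusted p = 0.00605).

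Dbp was at 5.09, 7.93, 8.06 and 8.43 CPM in ns cells and at 10.7, 12.3, 9.78 and 8.63 CPM in sen cells, so the groups just failed to overlap, with a log2 difference of 0.51 ± 0.20 (edgeR adjusted p = 0.0654). Per2 (3.21 to 8.99 against 6.30 to 11.7 CPM) and Per3 (2.90 to 7.09 against 5.60 to 7.81 CPM) overlapped between the groups. Their log2 differences were 0.78 ± 0.33 and 0.62 ± 0.29, with edgeR adjusted p of 0.0837 and 0.113. Per1 was at 33.9 to 44.3 CPM in ns cells and 26.4 to 37.6 CPM in sen cells, a log2 difference of -0.25 ± 0.16 (adjusted p = 0.220).

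Of the activators, Arntl was at 17.6, 17.8, 17.5 and 15.7 CPM in ns cells and at 18.1, 19.1, 14.1 and 16.0 CPM in sen cells. These overlapped, with a log2 difference of -0.0032 ± 0.14 (edgeR adjusted p = 0.987). Npas2 was at 1.66 to 4.14 CPM and 1.47 to 2.49 CPM (log2 difference -0.47 ± 0.35, adjusted p = 0.305). Clock was at 78.3, 77.9, 27.2 and 79.6 CPM in ns cells and at 108, 124, 58.2 and 97.6 CPM in sen cells. The lowest culture of each group was replicate 3, the library low in long transcripts, and Clock has the longest transcript of the members with 9744 bases. Its log2 difference was 0.59 ± 0.34 (edgeR adjusted p = 0.191), and 0.52 without both libraries of replicate 3, where Clock was called in addition (adjusted p = 0.00568), so that 4 members were called beside 39.7% of all genes.

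Cultures with the same replicate number deviated together, but so did sen replicate 1 and ns replicate 2 (r = 0.26). Their correlation was above that of the 2 cultures numbered 4 (r = 0.19). The 7 members called with the number as a block were all higher in sen cells. Beside Nr1d1, Nr1d2 and Tef these were Clock (log2 fold change 0.65, adjusted p = 0.00420), Per2 (0.84, adjusted p = 0.0239), Per3 (0.70, adjusted p = 0.0248) and Dbp (0.53, adjusted p = 0.0448). Without ns replicate 4, which had the most Per2 and Per3 of its group, 5 members were called against 41.8% of all genes, with Per2 (edgeR adjusted p = 0.0117) and Per3 (adjusted p = 0.00718) added to the 3. Of the markers that moved between the groups, all 8 proliferation genes fell (summed level 865 to 1453 CPM in ns and 27.4 to 46.6 CPM in sen cells), beside 19.7% of all genes. Of 7 tested fibroblast and pericyte genes 5 rose (14.1 to 85.2 and 102 to 373 CPM), beside 20.1% of all genes. The part of either list in the clock genes was not tested.

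Across the 5 groups, the ranges of all PTEC cultures and all kidneys were apart for 4 of 10 members, against 41.5% of the 14477 genes tested in both experiments, so the share of members was not above the background. Every PTEC culture had more Arntl (14.1 to 19.1 CPM) than every kidney (1.79 to 14.0 CPM), and less Nr1d1 (6.50 to 28.1 against 32.9 to 100.6 CPM), Dbp (5.09 to 12.3 against 31.1 to 206 CPM) and Tef (21.6 to 52.5 against 159 to 361 CPM). By group means, 3-month kidneys had 7.80-fold more Nr1d1, 7.44-fold more Tef and 6.31-fold more Dbp than ns cells, and ns cells had 1.70-fold more Arntl. The ratio of Dbp to Arntl was 0.289 to 0.693 in PTEC, below every kidney. No test was made between PTEC and kidneys, which differ in tissue, culture and gene set at once.

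The order of the group means was shared by Dbp, Tef, Nr1d1, Nr1d2, Per2 and Per3 and differed among the activators. For Arntl it was ns, sen, 3 months, 24 months and 12 months, with overlap between ns and sen cells and between 3 and 24 months. For Dbp and Tef it was 12 months, 24 months, 3 months, sen and ns, and only the 24- and 3-month kidneys overlapped. Nr1d1 and Nr1d2 had the same order, with overlap among all 3 ages, and Nr1d2 overlapped between 3-month kidneys and sen cells too. Per2 and Per3 also followed this order, with a gap only between 12 and 24 months for Per3, and all other neighbours overlapped. For Per1 it was ns, sen and the kidneys, with a gap between sen cells and 12-month kidneys. For Clock (sen, ns, 24, 3 and 12 months) and Npas2 (24 and 3 months, ns, sen and 12 months) all neighbours overlapped. Levels per kilobase used the exon bases of all annotated transcripts of a gene merged, so genes can be compared only roughly. These were 7523 bases for Arntl, whose longest transcript has 3995, and 4791 for Npas2, whose longest has 4236. On this scale mean levels in 12-month kidneys ran from 61.0 CPM per kb for Dbp, 42.7 for Tef, 26.2 for Nr1d1 and 21.6 for Nr1d2 down to 0.27 for Arntl and 0.26 for Npas2. In ns cells Per1 (6.99 CPM per kb), Nr1d2 (6.31) and Clock (4.79) led, and Per3 (0.45) was lowest.

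Of 12 other core clock genes, 1 rose and 1 fell between 3 and 12 months in kidney, beside 1.22% and 1.36% of all genes, and for 6 the 2 ages did not overlap, beside 20.3% of all genes. Bhlhe41, a repressor at E-boxes (DEC2), was at 2.10, 1.48 and 1.39 CPM at 3 months, 5.57, 3.46 and 4.49 CPM at 12 months and 2.88, 3.49 and 5.31 CPM at 24 months. It rose by 1.43 ± 0.30 on the log2 scale from 3 to 12 months (edgeR adjusted p = 0.0468), and the 24-month kidneys overlapped those of 12 months and lay above all of 3 months (log2 difference 1.24, adjusted p = 0.0751). Nfil3, which competes with DBP and TEF at D-boxes, was at 17.9, 34.7 and 23.5 CPM at 3 months, 3.19, 1.93 and 5.85 CPM at 12 months and 8.90, 25.9 and 6.57 CPM at 24 months. It fell by 2.81 ± 0.59 on the log2 scale from 3 to 12 months (edgeR adjusted p = 0.0455), so all 12-month kidneys were below all others for Nfil3 as for Arntl. Ciart, a repressor of the activating pair with 3 E-boxes in its promoter window, was at 7.65 to 9.78 CPM at 12 months, above all other kidneys, but its log2 difference of 1.37 ± 0.45 missed the threshold (edgeR adjusted p = 0.159). None of the 12 was called between 24 and 12 or between 24 and 3 months, beside 1.33% and 2.34% of all genes. The 24- and 3-month kidneys nevertheless did not overlap for 5 of the 12, beside 22% of all genes and 0 of the 10 members. The median log2 fold change of the list was 0.20 between 12 and 3 months, beside 0.40 for the members and 0.0044 for all genes.

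In PTEC, 4 of 11 tested other core clock genes rose and 2 fell, beside 20.1% and 19.7% of all genes. Bhlhe41 rose by 1.58 ± 0.20, Rora, an activator at ROR elements, by 1.08 ± 0.33, Cry2, a repressor, by 0.54 ± 0.18 and Arntl2, a relative of Arntl, by 0.53 ± 0.19, with edgeR adjusted p from 0.000273 to 0.0447. Cry1, the other cryptochrome repressor, fell by 0.68 ± 0.13 (adjusted p = 0.00220) and Timeless, which acts mainly in DNA replication, by 2.89 ± 0.21 (adjusted p = 1.18e-05). Hlf, the PAR bZIP relative of Dbp, was too low in PTEC to be tested, with at most 0.13 CPM, while kidneys had 41.2 to 165 CPM.

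Of the 7 clock kinases and ubiquitin ligases, Fbxl21, a ligase of the cryptochromes, was called between kidney ages, at 2.56 to 3.07, 5.62 to 6.45 and 2.32 to 3.47 CPM at 3, 12 and 24 months. It rose by 1.11 ± 0.19 from 3 to 12 months (edgeR adjusted p = 0.0282) and fell by 1.08 ± 0.19 from 12 to 24 months (adjusted p = 0.0370). In PTEC 3 of the 7 rose, beside 20.1% of all genes, Fbxl21 by 1.61 ± 0.30, Btrc by 0.68 ± 0.12 and Csnk1e by 0.51 ± 0.15. Of 8 clock output genes, Avpr2, the vasopressin receptor of the collecting duct, fell by 1.59 ± 0.26 from 3 to 12 months (edgeR adjusted p = 0.0240) and again from 3 to 24 months (34.0 to 69.7 against 18.5 to 23.5 CPM, adjusted p = 0.0291), and no other member of that list was called between kidney ages. Of all genes, 2.58% were called between 12 and 3 months, 1.33% between 24 and 12 months and 2.34% between 24 and 3 months. In PTEC 5 of the 8 fell, beside 19.7% of all genes, Avpr2, Slc9a3, Scnn1a, Nampt and Wee1, with Avpr2 changing most (log2 fold change -5.44), and none rose.

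Genes of the heat and cold response, some of which are known to follow body temperature over the day, were set beside the clock genes. Cirbp, a cold-inducible RNA-binding protein gene, was at 16.8 to 18.1 CPM at 3 months, at 35.0, 48.5 and 43.6 CPM at 12 months and at 13.3 to 19.5 CPM at 24 months. It rose by 1.28 ± 0.19 from 3 to 12 months (edgeR adjusted p = 0.0151) and fell by 1.30 ± 0.18 from 12 to 24 months (adjusted p = 0.0196). Between 3 and 12 months 6 of the other 7 genes of that list fell, namely the chaperone genes Hspa1b (-3.70), Hspa1a (-2.70), Hsph1 (-1.43), Dnajb1 (-1.34), Hsp90aa1 (-1.004) and Hspa8 (-0.80), with edgeR adjusted p from 0.0282 to 0.0468, beside 1.36% of all genes that fell. From 12 to 24 months Hsph1 rose by 1.44 ± 0.28 and Hspa8 by 1.16 ± 0.17. None of the 8 was called between 24 and 3 months, and in PTEC Hspa8 and Rbm3 fell by 0.55 ± 0.17 and 0.95 ± 0.13. The 12-month kidneys were thus apart from both other ages for 7 of the 8 genes, all but Rbm3, as they were for Arntl and Dbp, where 20.3% of all genes did not overlap between 12 and 3 months and 25.6% between 24 and 12 months. The part of the one in the other was not tested.

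**Figure D4:**
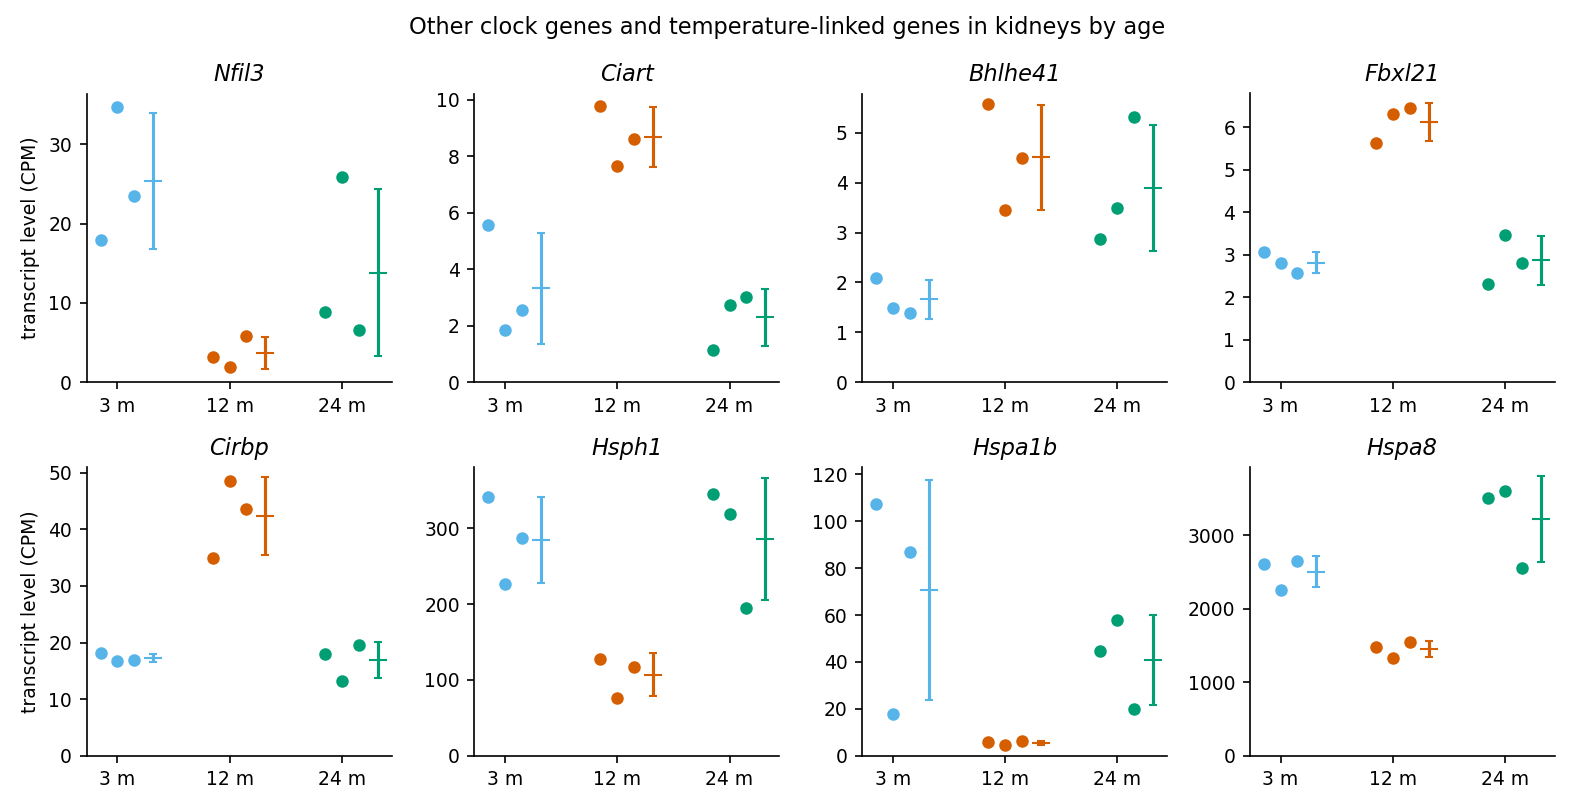
Levels in CPM of 4 other clock genes (Nfil3, Ciart, Bhlhe41, Fbxl21) and 4 genes of the heat and cold response (Cirbp, Hsph1, Hspa1b, Hspa8) in kidneys of 3, 12 and 24 months. Points are single kidneys, and bars show mean ± SD (n = 3). Cirbp lies between 35.0 and 48.5 CPM in the 12-month kidneys and at or below 19.5 CPM in all others.

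Further lists were set beside the clock genes in the same way, and the shares of all genes called in each comparison hold for them too. Of 6 glucocorticoid response genes none was called between any 2 kidney ages by edgeR, and in PTEC Fkbp5, Mt1 and Mt2 fell by 1.89 to 2.83 on the log2 scale while Pdk4 rose by 1.07. Of 9 immediate early genes, which respond quickly to stress of the tissue, none was called between 12 and 3 months. Fos and Dusp1 rose from 3 to 24 months, Fos rose from 12 to 24 months, and in PTEC Dusp1, Egr1, Fos and Fosb rose. Their summed level was 155, 329 and 1275 CPM in the 24-month kidneys against 98.0 to 133 CPM at 3 months and 78.1 to 92.0 CPM at 12 months. Of 8 proliferation genes, Mcm5 fell from 3 to 12 months (-0.69 ± 0.15, edgeR adjusted p = 0.0455), 5 rose from 12 to 24 months and 4 rose from 3 to 24 months.

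Among cell type markers in kidney, Aqp2 of the collecting duct fell from 3 to 12 months (-2.18 ± 0.35, edgeR adjusted p = 0.0224), and no other of the 8 genes of the loop, distal tubule and collecting duct was called at any age. The summed level of these 8 genes was 5375 to 7114 CPM at 3 months, 4037 to 5010 CPM at 12 months and 5590 to 7215 CPM at 24 months. Of 12 leukocyte genes, Cd3g and Cd79a rose from 3 to 12 months, and both rose with Cd3e from 3 to 24 months. The summed leukocyte level was 70.5 to 108 CPM at 3 months, 129 to 240 CPM at 12 months and 165 to 274 CPM at 24 months, and its part in the clock genes was not tested. Of 10 proximal tubule genes 3, Miox, Slc5a12 and Slc5a2, rose from 3 to 24 months and none was called in the other comparisons of ages, and no endothelial, fibroblast or pericyte gene was called. The summed endothelial level was 187.0 to 241.7 CPM at 3 months, 297.8 to 310.8 CPM at 12 months and 183.8 to 297.5 CPM at 24 months. All 6 endothelial genes had a higher estimate at 12 than at 3 months, beside 8625 of all 17067 genes. All 6 had a lower one at 24 than at 12 months, beside 8546 of all genes. The 2 comparisons share the 12-month kidneys. Of the 8 genes of the loop, distal tubule and collecting duct, 7 had a lower estimate at 12 than at 3 months. At 24 months 6 of these 8 had a higher estimate than at 12 months. The part of these differences in the clock genes was not tested. In PTEC, 3 of 7 tested leukocyte genes, 2 of 3 tested genes of the loop, distal tubule and collecting duct, 1 of 4 tested proximal tubule genes and 1 of 6 endothelial genes fell, beside 19.7% of all genes, and none of these lists had a gene that rose.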

How the data were processed

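Poly(A) RNA of 9 kidneys and 8 PTEC cultures had been sequenced from stranded libraries, and the authors deposited raw counts per gene for each library. The methods name nf-core/rnaseq 1.4.2 and GENCODE mouse release M18, and the submitters' processing notes the build GRCm38. How reads were assigned to genes, and whether strand was used, is not given in the sources used here. The files used 3 gene sets, joined on Ensembl identifiers without version, and the members had the same version in each.

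Counts were fitted with edgeR 4.0.16 (R 4.3.3, quasi-likelihood test, TMM scaling, filterByExpr), for the 9 kidneys and the 8 cultures apart, with the thresholds of the study. DESeq2 1.42.0 was an alternative, beside other scalings, filters, thresholds, replicate blocks and left-out libraries. Printed CPM come from 1 TMM scaling of all 17 libraries, whereas each fit used its own. Positions and exon lengths are from GENCODE M21. Precision rests on 3 or 4 libraries per group and is least for Npas2, the member with the fewest counts.

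The members and lists were chosen with earlier results of these data known. Named were the 10 members, the called genes of each list, the genes overlapping a member, and the 5 genes most like and most opposite to Arntl. Ciart and Hlf were named outside this rule, after their values were seen.

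Same-numbered libraries were checked for pairing by the correlation of their deviations from group means. It was 0.186 to 0.614 in PTEC and 0.172 to 0.557 between 12- and 24-month kidneys, above 0.1 in every pair. Against 3 months it was negative throughout (-0.70 to -0.034), so those kidneys share only a number. Libraries with different numbers also deviated together, with r up to 0.75 (12-month replicate 2 with 3-month replicate 3). Both of these, and the most alike PTEC pair, ns and sen replicate 3 (0.61), were low in long transcripts. The check therefore does not show that same-numbered libraries are pairs. The edgeR test was first checked on simulated data.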

Additional observations from a re-analysis of the deposited data

Results flagged for a closer look

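In groups of 4 libraries, Dixon's test at the 95% level marks a library that lies far from the other 3. It marked 8 of the 44 sets of values formed by the members and the other core clock genes in the 2 PTEC groups, where chance marks about 1 in 20. Groups of 3 kidneys were not tested. Among the members, ns replicate 3 was low for Clock, at 27.2 CPM against 77.9 to 79.6 CPM in the other ns cultures, and for Nr1d2, at 21.2 CPM against 36.8 to 39.8 CPM. Replicate 4 of the ns cultures was low for Arntl, at 15.7 CPM against 17.5 to 17.8 CPM. Replicate 1 of the ns cultures was low for Dbp, at 5.09 CPM against 7.93 to 8.43 CPM.

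Among the other core clock genes, ns replicate 3 was high for Nfil3, at 41.3 CPM against 25.0 to 26.0 CPM, and for Cry2, at 12.2 CPM against 8.67 to 9.12 CPM. Replicate 4 of the ns cultures was high for Bhlhe41, at 29.0 CPM against 17.5 to 18.9 CPM. In sen cells replicate 4 was low for Cry1, at 8.05 CPM against 8.93 to 9.10 CPM. Of the 8 marks, 4 fell on ns replicate 3, in which long transcripts were low (Spearman correlation of deviation with length -0.60). Its part in these values was not tested.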

How the results depend on the processing

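Over all alternatives no log2 fold change of a member past the threshold changed sign. Of 780 values of single members under an alternative, 740 kept their side of the threshold, 17 lost the call and 23 gained it. DESeq2 called 5 members between 12 and 3 months (Arntl, Npas2, Per3, Dbp, Tef, against 7.73% of all genes), 4 between 24 and 12 months (Arntl, Npas2, Dbp, Tef, against 5.72%), 5 over any age (against 14.1%) and 4 in PTEC (against 41.8%), where Dbp was added (adjusted p = 0.0400). With upper quartile scaling Tef was called between 12 and 3 months (adjusted p = 0.0455). With the replicate block over all 9 kidneys 0 were called between 12 and 3 months (edgeR adjusted p of Arntl 0.0851 and Dbp 0.0585) and 0 over any age. With the block 7 were called in PTEC, and 5 between 24 and 12 months in the fit of those ages alone, which was chosen after seeing the data. It changed no other call. A fit of only 3- and 12-month kidneys called 1 (Arntl, with Dbp at an adjusted p of 0.0680). Without a filter on low counts 1 was called between 24 and 12 months (Arntl, adjusted p = 0.0448). A log2 threshold of 1 left 1 in PTEC (Nr1d1). Without the 3 kidneys low in long transcripts, chosen after seeing the data, 0 were called between 12 and 3 months and 0 over any age, where Arntl was at -2.40 (adjusted p = 0.0987) and Dbp at 2.13 (adjusted p = 0.101). The cause was not tested, beyond the fewer samples in the fits that leave some out. Where no share of all genes is given for a fit, fewer calls of members cannot be told apart from fewer calls over all genes.

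Leaving out each library in turn gave 3 to 5 calls in PTEC, 0 to 2 between 12 and 3 months, 0 to 1 between 24 and 12 months (Arntl without 3-month replicate 2), 0 to 0 between 24 and 3 months and 0 to 2 over any age. Over any age 0 were called without 3-month replicate 1 or 3, 12-month replicate 1 or 3 or 24-month replicate 2, and 1 without 12-month replicate 2 (Dbp) or 24-month replicate 1 (Arntl). The share of all genes called is not given for most of these fits, so the same limit holds for their counts of members. Other scalings, prior counts and left-out kidneys for the correlation with Arntl were not run, because the kidneys fell into separate clusters of Arntl. Npas2, with the fewest counts of the members, had the widest spread in kidneys.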
